A study of Mus musculus with 6 samples.

Results

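The RNA levels of WNT ligands, their Frizzled and LGR receptors, and the secreted or feedback proteins that tune WNT signaling were described in mouse thyroid tumor cells sorted for the red marker Kate. Members were chosen by gene symbol alone: Wnt, Fzd, Dkk, Sfrp and Rspo genes, Lgr4, Lgr5, Lgr6, Wif1, Axin2, Nkd1, Nkd2 and Notum. The table held 47 such genes out of 35027, namely 18 ligands, 10 Frizzled genes, 4 R-spondin and 3 LGR genes, 9 secreted antagonists and 3 feedback genes. Of these, 35 lay above the offset of 0.0001 in at least 3 of the 6 libraries and were analysed, and 27 of the 35 had enough reads to be tested (a mean of at least 10 scaled reads, a unit explained with the libraries). Wnt3a and Dkk4, which the same symbols cover, were not analysed here.

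YAP tumors expressed the constitutively nuclear mutant YAPS127A in thyroid follicular cells, from a tetO transgene switched on by doxycycline chow that the mice received from 4 weeks of age. The transactivator rtTA and the fluorescent protein Kate came from one Rosa allele (RIK) that was opened by a thyroid-specific Cre, so that Kate marked the cells that had undergone recombination. BrafYAP tumors carried all of these alleles and, in addition, BrafV600E made from the endogenous Braf locus (LSL-Braf). Both groups had 3 libraries, YAP replicates 1, 2 and 3 and BrafYAP replicates 1, 2 and 6. Per the labels, 3 tumors were combined for every YAP library but only 1 was used for a BrafYAP library, so genotype and pooling cannot be told apart. A pool averages its tumors, so the spread among YAP libraries and that among BrafYAP libraries are not the same measure. No tumors without YAPS127A were analysed here. The comparison sets tumors with BrafV600E against tumors without it, all expressing YAPS127A, and cannot separate BrafV600E from the pooling.

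WNT proteins are lipid-modified secreted factors that bind Frizzled receptors together with LRP co-receptors. In the canonical branch this stabilizes β-catenin, which enters the nucleus and activates TCF/LEF target genes, whereas other branches act through planar cell polarity proteins or calcium. R-spondins bind LGR receptors and protect Frizzled proteins from removal, SFRP, DKK and WIF proteins block ligands or co-receptors outside the cell, and Axin2, Nkd1, Nkd2 and Notum are induced by the pathway and restrain it.

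Expression is given as scaled reads, which are read numbers recovered from the deposited TPM and kept on the authors' scaling between libraries. Libraries held 26.2 to 36.9 M estimated reads (M, 1000000). BrafYAP replicate 6 stood apart, with Pearson correlations of 0.732 to 0.836 with the other libraries over the genes tested, against 0.833 to 0.968 among the other 5, and genes are not independent of each other. The sorted cells held the thyroid lineage gene Pax8 in all 6 libraries (5843 to 14237 estimated reads) and all 10 epithelial markers were above the minimum. The 10 epithelial markers summed to 87944, 123625 and 256274 scaled reads per exonic kilobase in YAP replicates 1, 2 and 3. In BrafYAP replicates 1, 2 and 6 they summed to 257419, 159572 and 107251. The summed level of 11 macrophage markers was also high. It was 574125, 477238 and 168582 in YAP and 168664, 118393 and 48431 in BrafYAP libraries, in the same order. Macrophage sums were above the epithelial ones in YAP replicates 1 and 2 and below them elsewhere. Of the 11 macrophage markers, 10 had an unadjusted limma p under 0.05, all lower in BrafYAP. The 13 fibroblast markers summed to 1563 to 3169 in YAP and 1799 to 3212 in BrafYAP libraries, but single markers moved in opposite directions. Of the 12 tested, Lum and Dcn were higher and Thy1 and Col1a1 lower in BrafYAP at an unadjusted limma p under 0.05. Over all genes tested 9.68% were higher and 10.5% lower at this level. No macrophage or fibroblast marker was at 0 in all libraries. The 10 T-cell markers summed to 135 to 361 in YAP and 1594 to 6551 in BrafYAP libraries. Trbc1 and Trbc2 were higher in BrafYAP, but only 3 of the 9 T-cell markers tested had a positive log2 fold change (median -1.31). Cd3d, Cd3e and Cd3g had at most 42 estimated reads in YAP and at most 35 in BrafYAP libraries. Cd8b1 had 18 to 54 in YAP and 0 to 2 in BrafYAP libraries. BrafYAP replicate 6 had the highest summed level of parathyroid markers, 7187 against 0 to 1281 elsewhere. That sum rested mainly on Pth, with 5743 estimated reads in this library. Casr had 19 there and 0 to 12 elsewhere, and Gcm2 had 2 there and 10 in YAP replicate 2. The same library had the highest sums of C-cell markers (3828 against 26.5 to 1123) and endothelial markers (1164 against 55.9 to 454). The part of these cells in the WNT values below was not tested, and in bulk RNA fewer cells of a type and less RNA per cell cannot be told apart.

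BrafYAP and YAP were compared by limma on log2(scaled reads + 1). Of 16834 genes tested, 0 (0%) passed a Benjamini-Hochberg adjusted p of 0.05, and voom on the same reads gave 0 as well, so that no WNT member passed. An unadjusted p under 0.05 was found for 3404 genes (20.2%), 9.68% higher and 10.5% lower in BrafYAP. Among the 27 WNT members tested, 4 were higher at this level (Wnt10a, Fzd1, Fzd4 and Fzd5) and 2 were lower (Fzd7 and Lgr4), 6 of 27 against the 20.2% of all genes. The groups did not overlap for 7 members, 5 of them higher in BrafYAP (these 4 and Fzd3) and 2 lower. Over all genes tested 28.7% did not overlap, 11.6% higher and 17.1% lower. The counts in both directions together are near those of all genes, while by direction 5 of 27 and 2 of 27 stand beside 11.6% and 17.1%, a split that was not tested. The median log2 fold change of the members was 0.41, beside -0.12 over all genes tested, and 16 of the 27 had a positive value.

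**Figure D1:**
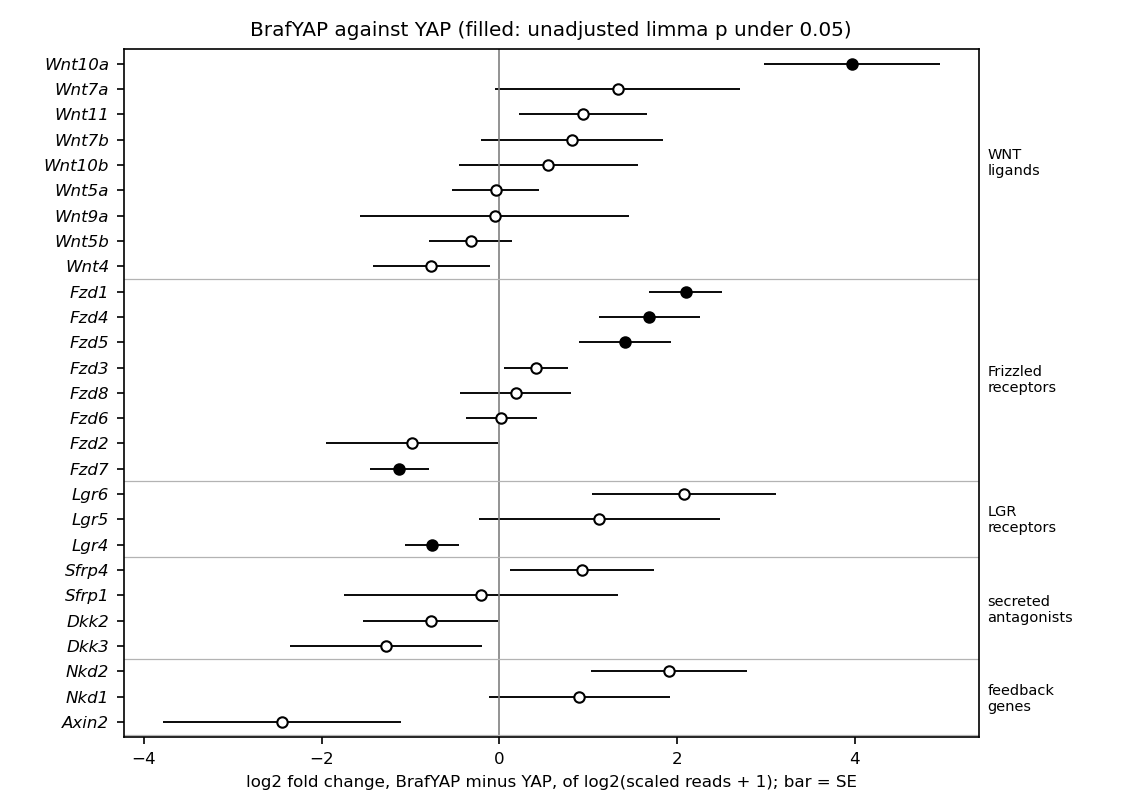
Log2 fold change (BrafYAP minus YAP) of the 27 WNT members tested, with its standard error as a bar and members grouped by role; the x axis is the difference of log2(scaled reads + 1) and filled points have an unadjusted limma p under 0.05. Wnt10a lies farthest to the right at 3.97 and Axin2 farthest to the left at -2.45, and the ligand Wnt9a has one of the widest bars (SE 1.51).

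Among the ligands, Wnt10a separated the genotypes most clearly, while the most abundant one, Wnt9a, varied more within BrafYAP than between the groups. Wnt10a encodes a canonical ligand known from tooth, hair and skin development. It had 15.4, 310.6 and 154.5 scaled reads in YAP replicates 1, 2 and 3 and 1357, 1704 and 1319 in BrafYAP replicates 1, 2 and 6. Each BrafYAP library therefore held at least 4.25 times the highest YAP value, and YAP replicate 1 had almost none. The means were 160.2 ± 148 (SD, n = 3) and 1460.0 ± 212 (SD, n = 3), a ratio of 9.11 and a log2 fold change of 3.97 (SE 0.99 and adjusted p = 0.110 by limma). It kept its direction in all 19 alternative fits, between 1.80 and 4.84, with limma adjusted p-values from 0.00459 to 0.269. It passed the threshold in 1 of the 19, the fit with array weights, where 4650 of 16834 genes passed. The value was 2.72 without YAP replicate 1, the library with the lowest level.

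Wnt10a (chromosome 1, 74791516 to 74804179, + strand, mm10) lies 6.19 kb from another ligand gene, Wnt6, and no other annotated gene overlaps it. The neighbor was close to silent: Wnt6 had 0 to 4 estimated reads in YAP and 1 to 7 in BrafYAP libraries. Wnt10b and Wnt1 on chromosome 15, 11.7 kb apart, showed 5 to 36 and 10 to 79 estimated reads for Wnt10b, and 1 to 4 and 4 to 13 for Wnt1. Their groups overlapped. Wnt9b and Wnt3 on chromosome 11, 24.3 kb apart, had 0 reads except for 2 of Wnt3 in YAP replicate 1.

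Wnt9a was the ligand with the highest level per exonic kilobase, 790 ± 432 (SD, n = 3) scaled reads per kilobase in YAP and 1926 ± 1954 (SD, n = 3) in BrafYAP. It lies at 59306928 to 59333552 of chromosome 11 (+ strand). Its scaled reads were 1556, 4267 and 2069 in YAP replicates 1, 2 and 3. In BrafYAP they were 5933 in replicate 1, 13141 in replicate 2 and 157 in replicate 6. BrafYAP replicates 1 and 2 lay above the YAP values and replicate 6 below them, so the log2 fold change of -0.05 (SE 1.51 and adjusted p = 0.987 by limma) describes neither. Without BrafYAP replicate 6 it was 1.88 (SE 0.54 and adjusted p = 0.134 by limma).

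Wnt7a and Wnt7b, ligands that act in epithelia, lung and brain vessels, were likewise highest in BrafYAP replicate 2 and lowest in BrafYAP replicate 6. Wnt7a (chromosome 6, 91363981 to 91411363, - strand) had 217, 287 and 467 scaled reads in YAP replicates 1, 2 and 3, and 2071, 3439 and 64.8 in BrafYAP replicates 1, 2 and 6. Its log2 fold change was 1.33 (SE 1.38 and adjusted p = 0.609 by limma). Without BrafYAP replicate 6 it was 3.11 (SE 0.43 and adjusted p = 0.0421 by limma), the sole WNT member past the threshold in that fit, where 142 of 16590 genes (0.856%) passed. Wnt7b, named after its values were seen, had 347, 999 and 1003 scaled reads in YAP replicates 1, 2 and 3, and 1657, 4684 and 249 in BrafYAP replicates 1, 2 and 6. In both genes all YAP libraries lay between BrafYAP replicate 6 and the other BrafYAP libraries.

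**Figure D2:**
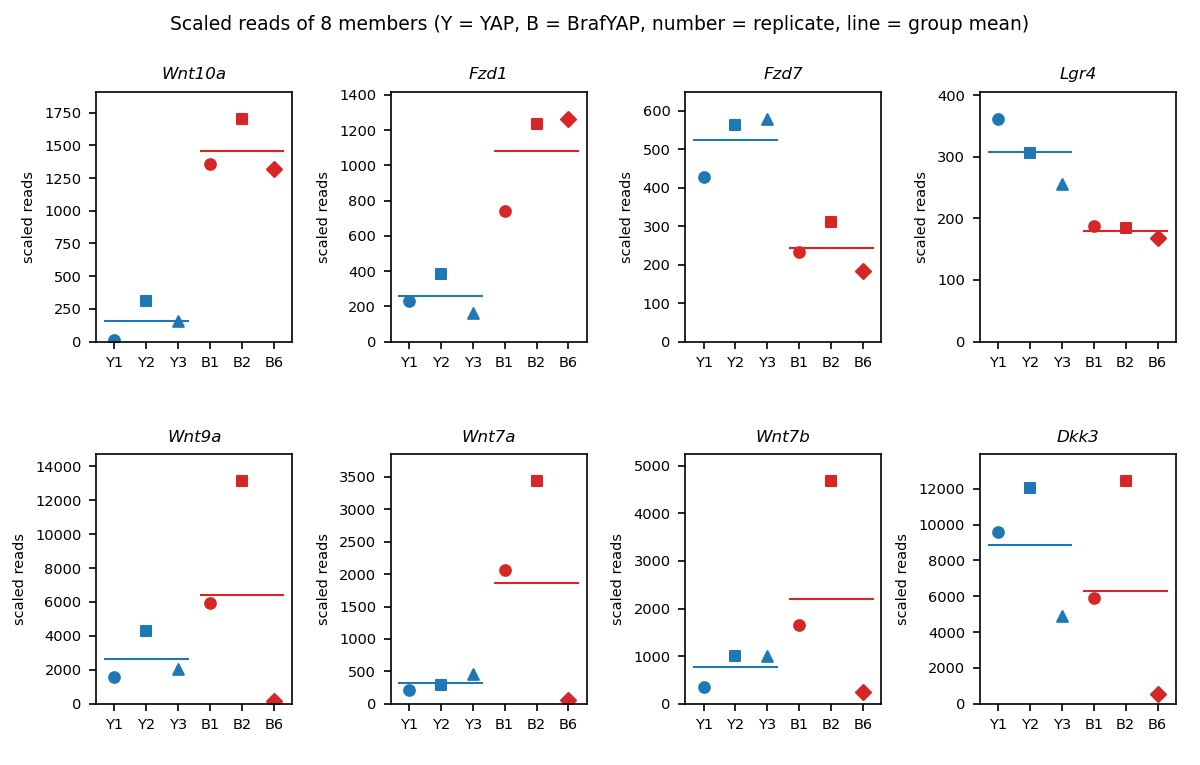
Scaled reads (y axis, from 0) of 8 WNT members in each library, with YAP libraries in blue (Y1, Y2, Y3), BrafYAP libraries in red (B1, B2, B6) and group means as lines. Wnt10a, Fzd1, Fzd7 and Lgr4 separate the genotypes, whereas for Wnt9a, Wnt7a, Wnt7b and Dkk3 BrafYAP replicate 6 lies below every other library.

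Wnt5a and Wnt5b, the ligands best known for signaling without β-catenin, were present at similar levels in both groups. Wnt5b had 691 ± 302 (SD, n = 3) scaled reads in YAP and 545 ± 204 (SD, n = 3) in BrafYAP (log2 fold change -0.32, SE 0.47). Wnt5a had 339.5 ± 49.2 (SD, n = 3) and 371 ± 205 (SD, n = 3), and the log2 fold change was -0.04 (SE 0.49). Their groups overlapped. Wnt4, a ligand of gonad and kidney development, Wnt11, known from convergent extension movements, and Wnt10b were low, with group means of 25.9 to 204 scaled reads, and their groups overlapped as well. Wnt1, Wnt2, Wnt2b and Wnt6 were above the offset in 3 or more libraries but under a mean of 10 scaled reads. Wnt2 had 5 estimated reads in YAP replicate 1 and 16 and 40 in BrafYAP replicates 1 and 2, with 0 in the other libraries. Wnt3 and Wnt8a appeared in 1 and 2 libraries with at most 7 estimated reads, and Wnt8b, Wnt9b and Wnt16 had 0 in all 6, where 3 reads is the most that a count of 0 allows. These limits cover counting error only, since PCR copies carry no molecular identifier.

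**Figure D3:**
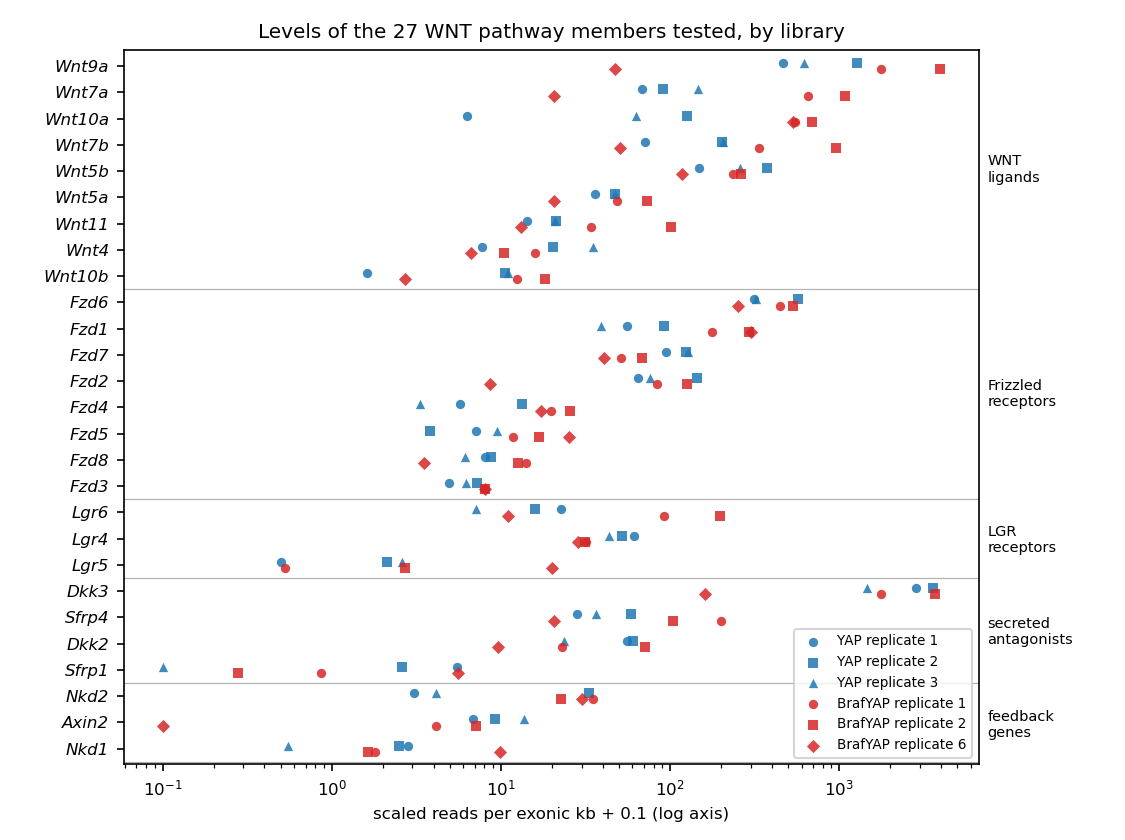
Level of each WNT member tested in each library, as scaled reads per exonic kilobase plus 0.1 on a log axis, with members ordered by mean level within their role; blue points are YAP and red points BrafYAP libraries. Dkk3 and Wnt9a reach the highest levels, and the red diamonds of BrafYAP replicate 6 often lie away from the other BrafYAP points.

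Among the Frizzled receptors, Fzd1 was higher and Fzd7 lower in every BrafYAP library, and Fzd6 was the most abundant in 5 of the 6 libraries. Frizzled proteins are membrane receptors for WNT ligands. Fzd1 (chromosome 5, 4753839 to 4758035, - strand) had 232, 385 and 163 scaled reads in YAP replicates 1, 2 and 3 and 740, 1233 and 1265 in BrafYAP replicates 1, 2 and 6. Here BrafYAP replicate 6 stood with its group, and the lowest BrafYAP library held 1.92 times the highest YAP one. The means were 260 ± 114 (SD, n = 3) and 1079.5 ± 294 (SD, n = 3), a ratio of 4.15 and a log2 fold change of 2.10 (SE 0.42 and adjusted p = 0.0890 by limma). With any single library removed it stayed between 1.81 and 2.43, and limma gave adjusted p-values of 0.0595 to 0.253.

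Fzd7, a receptor of progenitor cells in several epithelia (chromosome 1, 59482424 to 59486955, + strand), had 427, 563 and 580 scaled reads in YAP replicates 1, 2 and 3 and 233, 311 and 184 in BrafYAP replicates 1, 2 and 6. Its groups did not overlap. The means were 523 ± 83.9 (SD, n = 3) and 242 ± 64.1 (SD, n = 3), and the log2 fold change was -1.13 (SE 0.33 and adjusted p = 0.140 by limma). It ranged from -1.32 to -0.94 when each library was left out in turn. Fzd1 and Fzd7 belong to the same subfamily of Frizzled receptors as Fzd2, which had 237, 526 and 279 scaled reads in YAP replicates 1, 2 and 3 and 308, 459 and 31.1 in BrafYAP replicates 1, 2 and 6. Fzd2 overlapped between the groups, so the related receptors did not share a pattern in these libraries.

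Fzd4 and Fzd5 were low but without overlap between the genotypes, higher in BrafYAP. Fzd4, which also serves the ligand norrin in vessels, had 38.0, 89.3 and 21.6 scaled reads in YAP replicates 1, 2 and 3 and 133, 171 and 115 in BrafYAP replicates 1, 2 and 6 (log2 fold change 1.69, SE 0.57 and adjusted p = 0.172 by limma). Fzd5, a receptor of Paneth cells in the intestine, had 48.9, 25.7 and 64.9 scaled reads against 81.4, 115 and 175, in the same order of libraries (log2 fold change 1.42, SE 0.51 and adjusted p = 0.194 by limma). Fzd5 overlaps the predicted gene Gm38058, and its estimated reads were not whole in 4 libraries, so that some may be shared. Fzd3, a receptor of axon guidance, had 61.7, 91.7 and 78.3 scaled reads in YAP replicates 1, 2 and 3 and 101, 102 and 102 in BrafYAP replicates 1, 2 and 6. The gap between its groups was small (log2 fold change 0.41, SE 0.36 and adjusted p = 0.545 by limma).

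Fzd6, a planar polarity receptor, did not separate the groups. It had 1509, 2749 and 1549 scaled reads in YAP replicates 1, 2 and 3 and 2164, 2564 and 1218 in BrafYAP replicates 1, 2 and 6, a log2 fold change of 0.02 (SE 0.40 and adjusted p = 0.979 by limma). Its sign changed with 5 of 19 alternatives. Fzd8 averaged 44.9 ± 7.93 (SD, n = 3) and 59.6 ± 34.2 (SD, n = 3). Fzd9 and Fzd10 had at most 3 estimated reads in any library and were not tested.

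Promoters are shown for the receptor genes that separated the genotypes in opposite directions, to give the sequence context of Fzd1 against Fzd7, and for Lgr4, which carries motif letters. Each run covers 250 bases before to 50 after the RefSeq start (GRCm38.p6, the patch release of mm10), 5′ to 3′ along the gene. Capitals mark the letters GGAATG, the core bound by TEAD factors through which YAP acts, on either strand (CATTCC on the other). The windows are chr5:4758167-4758466 (- strand) for Fzd1, chr1:59481897-59482196 (+ strand) for Fzd7 and chr2:109917397-109917696 (+ strand) for Lgr4.
Fzd1: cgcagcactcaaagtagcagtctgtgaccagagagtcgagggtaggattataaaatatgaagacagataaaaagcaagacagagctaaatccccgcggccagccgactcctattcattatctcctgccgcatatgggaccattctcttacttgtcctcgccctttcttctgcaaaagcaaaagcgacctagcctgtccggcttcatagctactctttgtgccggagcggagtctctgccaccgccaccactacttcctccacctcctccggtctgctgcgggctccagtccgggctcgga
Fzd7: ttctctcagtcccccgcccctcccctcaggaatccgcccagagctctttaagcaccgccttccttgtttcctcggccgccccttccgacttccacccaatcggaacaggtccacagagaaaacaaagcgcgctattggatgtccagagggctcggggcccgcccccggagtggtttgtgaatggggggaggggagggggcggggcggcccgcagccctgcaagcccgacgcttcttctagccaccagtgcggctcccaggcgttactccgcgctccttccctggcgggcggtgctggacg
Lgr4: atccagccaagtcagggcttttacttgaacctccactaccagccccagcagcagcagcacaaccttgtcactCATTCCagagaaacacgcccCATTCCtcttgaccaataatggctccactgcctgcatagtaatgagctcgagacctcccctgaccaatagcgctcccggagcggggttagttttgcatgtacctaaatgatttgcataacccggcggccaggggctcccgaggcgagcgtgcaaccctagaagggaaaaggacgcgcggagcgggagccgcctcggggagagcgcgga

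The Lgr4 window held GGAATG letters at 2 places, starting 178 and 158 bases before the start, and the Fzd1 and Fzd7 windows held none. The same letters occurred in 14.7% of all 32851 promoter windows of this length. Besides TEAD letters, CTTTGAT (TCF/LEF factors, 3.73% of all windows), TGANTCA (AP-1, 7.81%) and CCGGAAG (ETS factors, 8.86%) were searched on both strands. No member window held more than 1 of the 4 motifs. Promoters of 16 of the 27 WNT members tested were searched, in 19 windows, since Wnt5b has 3 starts and Wnt11 has 2. Member windows on chromosome 18, where Fzd8 lies, were left out, a step not applied to the 32851 windows. TEAD letters lay in 2 of the 19 windows (Lgr4 and one of Wnt5b), TCF/LEF letters in 2 (Wnt11 and one of Wnt5b), AP-1 letters in 1 (Wnt5b) and ETS letters in 0. A match is only a run of letters in this window and was not tested for binding. The windows had a median GC content of 66.7%.

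Among the R-spondin receptors, Lgr4 was lower in all BrafYAP libraries and Lgr6 was higher in only 2 of them. LGR4, LGR5 and LGR6 bind R-spondins, and Lgr5 marks stem cells of the intestine and hair follicle. Lgr4 (chromosome 2, 109917647 to 110014257, + strand) had 362, 306 and 256 scaled reads in YAP replicates 1, 2 and 3 and 187, 184 and 169 in BrafYAP replicates 1, 2 and 6. The means were 308 ± 52.7 (SD, n = 3) and 179.9 ± 9.82 (SD, n = 3), and the log2 fold change was -0.76 (SE 0.30 and adjusted p = 0.226 by limma). Macrophage markers were lower in BrafYAP as well (10 of 11, above), as was Fzd7, and the part of macrophage RNA in the values of Lgr4 and Fzd7 was not tested. Lgr6, named after its values were seen, had 155, 109 and 48.4 scaled reads in YAP replicates 1, 2 and 3 and 631, 1347 and 74.6 in BrafYAP replicates 1, 2 and 6. The log2 fold change was 2.08 (SE 1.04 and adjusted p = 0.306 by limma), or 3.29 (SE 0.59 and adjusted p = 0.0604 by limma) without BrafYAP replicate 6. Lgr5 went the other way in that library: it had 206 scaled reads in BrafYAP replicate 6 and 4.11 to 26.7 in the other 5.

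The ligands of these receptors were almost absent. Rspo1 had 8, 1 and 4 estimated reads in YAP replicates 1, 2 and 3 and 0 in each BrafYAP library, too few to test. Rspo4 had 1 read in 1 library, and Rspo2 and Rspo3 had 0 in all 6.

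The secreted antagonists were dominated by Dkk3, which per exonic kilobase had the highest level of the WNT members in each YAP library, while Wnt9a was higher in BrafYAP replicates 1 and 2 and Wnt10a in BrafYAP replicate 6. DKK3 belongs to the Dickkopf family by sequence but, unlike Dkk1, is not a strong LRP inhibitor. Dkk3 (chromosome 7, 112116017 to 112159057, - strand) had 9568, 12061 and 4909.6 scaled reads in YAP replicates 1, 2 and 3 and 5927, 12448 and 543 in BrafYAP replicates 1, 2 and 6. BrafYAP replicate 6 lay below every other library, and the log2 fold change of -1.27 (SE 1.08 and adjusted p = 0.527 by limma) turned to 0.05 (SE 0.50) without that library. Sfrp4, a decoy for WNT ligands and named after its values were seen, had 118, 246 and 151 scaled reads in YAP replicates 1, 2 and 3 and 834, 435 and 85.2 in BrafYAP replicates 1, 2 and 6 (log2 fold change 0.94, SE 0.81 and adjusted p = 0.537 by limma). Dkk2 had 87.5 to 225 scaled reads in YAP and 35.5 to 263 in BrafYAP. Sfrp1 had at most 27 estimated reads in any library. Sfrp2 had 1 to 4 estimated reads in 5 libraries and 45 in BrafYAP replicate 6, Sfrp5 had at most 11, and Wif1 had 8 in YAP replicate 1, 7 in BrafYAP replicate 1, 1 in BrafYAP replicate 2 and 0 elsewhere. Dkk1 had 0 reads in all libraries.

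The feedback genes showed no shared direction. Axin2, a scaffold of the β-catenin destruction complex and a widely used readout of canonical signaling (chromosome 11, 108920349 to 108950783, + strand, overlapped by Gm11670), had 37.0, 50.1 and 75.2 scaled reads in YAP replicates 1, 2 and 3 and 22.2, 38.5 and 0 in BrafYAP replicates 1, 2 and 6. The groups overlapped by one library, BrafYAP replicate 2. The means were 54.1 ± 19.4 (SD, n = 3) and 20.2 ± 19.3 (SD, n = 3), and the log2 fold change of -2.45 (SE 1.34 and adjusted p = 0.347 by limma) was -0.81 (SE 0.52) without BrafYAP replicate 6. Nkd2, an inhibitor of Dishevelled, had 14.4, 159 and 19.6 scaled reads in YAP replicates 1, 2 and 3 and 168, 108 and 145 in BrafYAP replicates 1, 2 and 6. YAP replicate 2 lay among the BrafYAP values (log2 fold change 1.91, SE 0.88 and adjusted p = 0.273 by limma), and without it the value was 2.97 (limma adjusted p = 0.0595). Its paralog Nkd1 had 12.3, 11.01 and 2.06 scaled reads in YAP replicates 1, 2 and 3 and 7.76, 7.06 and 44.4 in BrafYAP replicates 1, 2 and 6. Notum, an enzyme that strips the lipid from WNT ligands, had 2 and 3 estimated reads in BrafYAP replicates 1 and 2 and 0 in the other libraries, too few to test.

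The composition of the ligand and receptor RNA was then compared per exonic kilobase. Wnt9a made up 53.1% ± 7.99 (SD, n = 3) of the summed ligand level in YAP libraries, and 48.4% and 55.1% in BrafYAP replicates 1 and 2, but 5.78% in BrafYAP replicate 6. There Wnt10a was the leading ligand with 65.4%, against 14.9% and 9.64% in BrafYAP replicates 1 and 2 and 0.757 to 5.77% in YAP. The share of Wnt5b was 17.2 to 18.3% in YAP and 3.66 to 14.4% in BrafYAP. For the receptors, Fzd6 held 54.6 to 59.2% in YAP and 38.5 to 55.02% in BrafYAP. Fzd1 held 6.58 to 10.0% in YAP and 21.6 to 45.9% in BrafYAP, and was above Fzd6 in BrafYAP replicate 6 alone. Fzd7 held 12.9 to 21.7% in YAP and 6.17 to 6.33% in BrafYAP. The summed ligand level itself was 825 to 2182 scaled reads per kilobase in YAP and 817 to 7165 in BrafYAP, with overlap, and the summed Frizzled level was 553 to 964 and 657 to 1083.

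**Figure D4:**
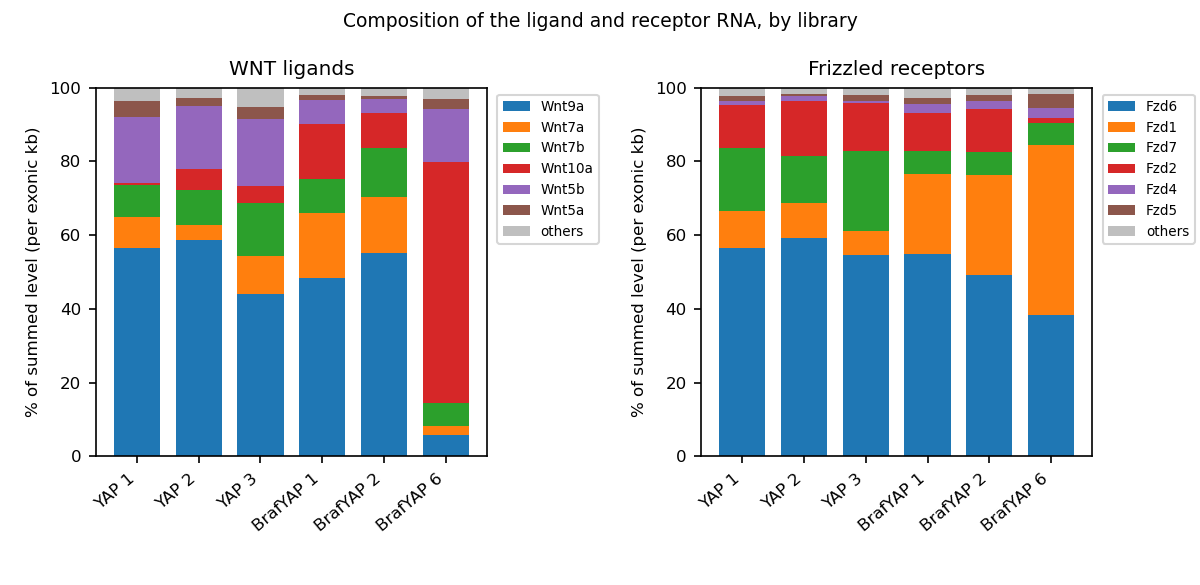
Share of each gene in the summed level (scaled reads per exonic kilobase, in %) of the WNT ligands, left, and of the Frizzled receptors, right, in each of the 6 libraries. Wnt9a is the largest ligand share in 5 libraries and Wnt10a in BrafYAP replicate 6, and the Fzd1 share is larger in the BrafYAP libraries, without overlap.

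BrafYAP replicates 6 and 2 held the extremes of many members. Replicate 2 had the highest value of the 6 libraries for 11 of the 27 WNT members tested (40.7%), against 12.9% of all genes. Replicate 6 had the lowest value of the 6 libraries for 16 of the 27 WNT members tested (59.3%) and the highest for 6 (22.2%), where it was lowest for 31.03% and highest for 23.8% of all genes tested. Wnt9a was 60.7 times higher in the mean of BrafYAP replicates 1 and 2 than in replicate 6, Wnt7a 42.5 times, Dkk3 16.9 times, Lgr6 13.3 times, Wnt7b 12.8 times and Fzd2 12.3 times. Wnt10a, Fzd1, Fzd7 and Lgr4 differed by 0.780 to 1.48 times only. Their groups did not overlap, which already requires replicate 6 to lie on the same side as replicates 1 and 2. Without replicate 6, 26 members were tested, of which 10 were higher at an unadjusted p under 0.05 (Wnt7a, Lgr6, Fzd1, Sfrp4, Wnt9a, Wnt10a, Wnt2, Wnt7b, Wnt11 and Fzd4) and 1 was lower (Fzd7), beside 9.42% and 11.5% of all genes in that fit. Wnt2, with 5.14, 0 and 0 scaled reads in YAP, reached the minimum in that fit only through BrafYAP replicates 1 and 2 and had to differ.

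Other genes of the pathway were taken from lists of co-receptors and secretion factors, intracellular components, planar polarity genes and WNT target genes, 79 genes in all. Of the 70 tested, 0 passed the threshold of limma, and 15 were higher and 2 lower in BrafYAP at an unadjusted p under 0.05, beside 9.68% and 10.5% of all genes. By list, 6 of 32 intracellular components were higher and 0 lower, 2 of 16 co-receptor and secretion genes were higher and 1 lower, 1 of 11 planar polarity genes was higher and 1 lower, and 7 of 16 target genes were higher and 0 lower, with Lef1 counted both as a component and as a target. Sp5 and Tnfrsf19, with mean scaled reads of 1.22 and 2.45 in YAP, reached the minimum only through BrafYAP and had to differ, so the counts give them no weight. Of the other 14 targets 5 were higher. The 7 targets were Sox9, Sp5, Lef1, Tnfrsf19, Ccnd1, Fosl1 and Tbx3, and some of them, such as Ccnd1 and Fosl1, are also known targets of MAPK signaling. Ccnd1, Fosl1 and Tbx3 are named here to complete the count.

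Ctnnb1, which encodes β-catenin, had 4618, 7832 and 6164 scaled reads in YAP replicates 1, 2 and 3 and 15568, 19806 and 15811 in BrafYAP replicates 1, 2 and 6. Its groups were apart, with the higher values in BrafYAP (log2 fold change 1.48, SE 0.30 and adjusted p = 0.0890 by limma). Lef1, a nuclear partner of β-catenin and itself a target, had 21.6, 42.0 and 20.6 scaled reads against 135, 171 and 65.3 in the same order (log2 fold change 2.07, SE 0.54 and adjusted p = 0.117 by limma). Its relative Tcf7 did not follow: it had 175, 109 and 96.8 scaled reads in YAP replicates 1, 2 and 3 and 51.0, 137 and 0.888 in BrafYAP replicates 1, 2 and 6. Sp5, a direct target in many tissues, had 0, 3.67 and 0 scaled reads in YAP replicates 1, 2 and 3 and 126, 137 and 22.2 in BrafYAP replicates 1, 2 and 6. Sox9, a progenitor factor, averaged 464 ± 131 (SD, n = 3) in the YAP libraries and 2308 ± 686 (SD, n = 3) in BrafYAP (log2 fold change 2.32, SE 0.36 and adjusted p = 0.0666 by limma). The groups did not overlap for Sox9 or Lef1, while Axin2 had its lowest value, 0, in BrafYAP replicate 6.

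**Figure D5:**
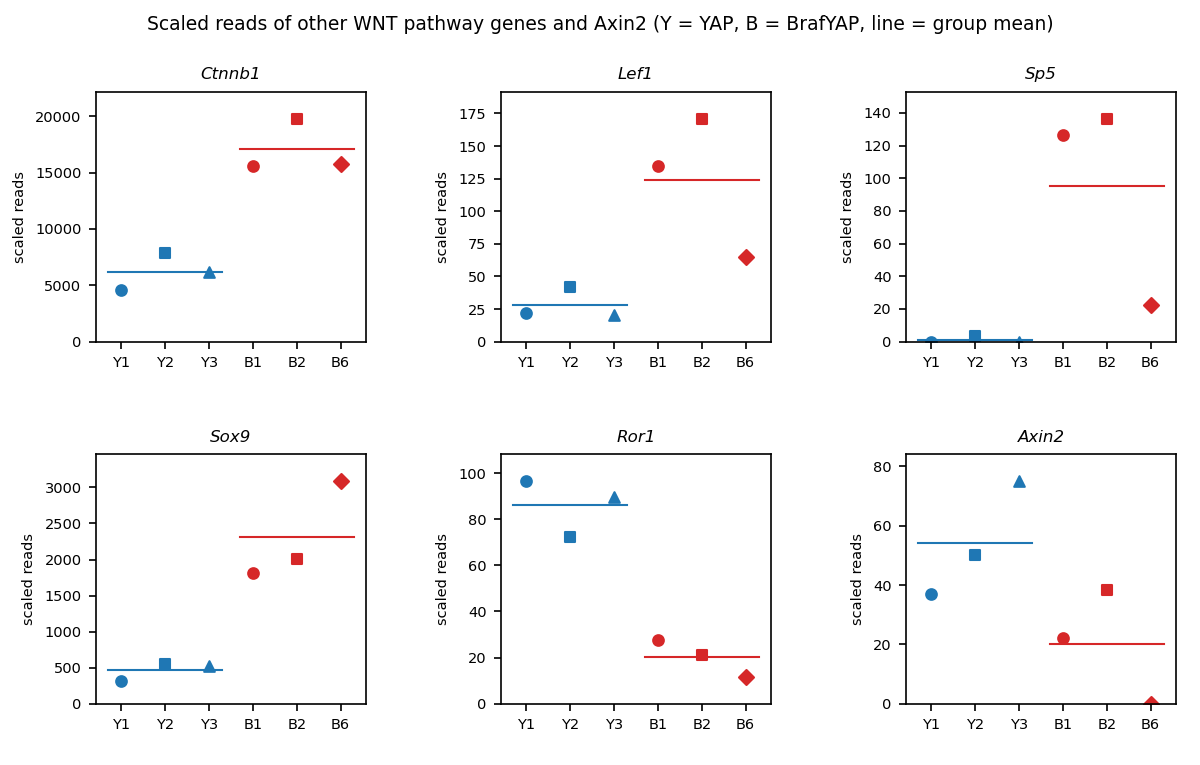
Scaled reads (y axis, from 0) of Ctnnb1, Lef1, Sp5, Sox9, Ror1 and Axin2 in each library, with YAP libraries in blue, BrafYAP libraries in red and group means as lines. Ctnnb1, Lef1, Sox9 and Ror1 separate the genotypes, Ror1 with lower values in BrafYAP, and Sp5 is near 0 in YAP.

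Ror1, a WNT5A receptor, had 96.6, 72.2 and 89.6 scaled reads in YAP replicates 1, 2 and 3 and 27.7, 21.2 and 11.5 in BrafYAP replicates 1, 2 and 6 (log2 fold change -2.11, SE 0.50 and adjusted p = 0.107 by limma). Among planar polarity genes Vangl1 averaged 276 ± 56.4 (SD, n = 3) and 656 ± 166 (SD, n = 3), with no overlap (limma adjusted p = 0.127). Dact2, a Dishevelled-binding protein, averaged 34.1 ± 7.83 (SD, n = 3) and 202 ± 169.7 (SD, n = 3), with 397 in BrafYAP replicate 6. The genes needed to secrete any WNT ligand were present throughout. Wls, the carrier of WNT proteins to the cell surface, had 8725 to 12083 scaled reads in YAP and 8416 to 15937 in BrafYAP (limma adjusted p = 0.791). Porcn, the enzyme that attaches their lipid, had 543 to 1482 and 346 to 2437 (limma adjusted p = 0.764).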

How the data were processed

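RNA-seq was performed on about 20000 Kate-positive cells per library, amplified with a SMART-Seq kit (12 cycles) and sequenced as paired 50-nt reads. The authors aligned reads with STAR 2.6.1d to mm10, used Partek expectation-maximization with Ensembl 95 gene models, and deposited TPM with 0.0001 added. Column totals were 181218, not the 1000000 of TPM. Low values times genomic span (GENCODE M21) were whole multiples of one step per library, within 0.05, for 71.7 to 76.0% of genes. The same held for 97.0% of 133 WNT values under 200 reads. With exonic length, 22.3 to 24.9% of genes were whole at the same step. That step was found with span and none was fitted for exonic length, so this contrast cannot decide between the lengths. Values were multiplied by span because of the whole multiples that span gave. Estimated reads are in units of the step, and scaled reads keep the authors' scaling. The table paired 34645 of 35027 symbols with 1 locus. No strand setting is given in the sources used here, so overlapping genes can share reads. Depth was 26.2 to 36.9 M estimated reads, and intervals would cover counting error only.

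Scaled reads + 1 were compared on the log2 scale by limma 3.58.1 in R 4.3.3 (eBayes with a trend, two-sided, genes with a mean of at least 10, Benjamini-Hochberg over all genes), with the script tested on simulated data. Samples were grouped by title. An exact permutation test cannot go below 0.1 with 3 libraries against 3, and p-values measure the spread between these libraries. Alternatives were another pseudocount, filter, scaling or length, eBayes without a trend, array weights, voom, a replicate block, protein-coding genes only and each library left out. Members with an unadjusted p under 0.05, without overlap, or among the 5 highest per exonic kilobase were described in full, with Axin2, Nkd1, Nkd2 and Notum. The members and lists were chosen with earlier results of these data known. The study's results text places the doxycycline start later than the 4 weeks of its methods and the labels, and its methods give 1 tumor per mouse for each replicate. The labels were followed.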

Additional observations from a re-analysis of the deposited data

How the results depend on the processing

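Of 252 refitted values of the 14 WNT members described in full, 230 kept their direction and their side of the threshold. Over all genes, 0 passed the threshold, which became 45 with a pseudocount of 10, 62 with quantile normalization and with exonic-length TPM, 18 on the deposited values, 20 without a trend and 4650 with array weights. No WNT member passed except with array weights (8 of 27, beside 4650 of 16834 genes) and without BrafYAP replicate 6 (1 of 26, beside 142 of 16590). Of the 70 other pathway genes tested 1 passed with quantile normalization (62 of 16834 genes) and 21 with array weights (4650 of 16834). The 4 members higher at an unadjusted p under 0.05 became 11 with array weights (19.5% of all genes were then higher), 7 with the replicate block (6.65%) and 2 on the deposited values (10.7%), where 9 members were tested. The 2 lower became 4 with array weights (21.6%) and 1 with quantile normalization, median-ratio factors, deposited values, exonic-length TPM, voom or the replicate block. In the fits with 1 lower member 8.39 to 10% of all genes were lower. Leaving out each library gave 0 to 142 genes, 0 to 1 WNT members and 0 to 1 pathway genes past the threshold. At an unadjusted p under 0.05 it gave 2 to 10 members higher and 1 to 2 lower. Over all genes 6.42 to 14% were then higher and 7.15 to 11.5% lower. The median of the members lay between 0.01 and 0.98. Median-ratio factors moved the median of all genes by 0.127, with 11.6% of genes then higher and 8.49% lower. Array weights gave YAP replicate 3 a weight of 4.81 and BrafYAP replicate 6 a weight of 0.221. In the block YAP replicate 3 and BrafYAP replicate 6 have no partner and do not enter the estimate, which rests on numbers 1 and 2. The replicate numbers share only a name: same-numbered libraries deviated with correlations of -0.0322 and 0.047.

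Wnt9a turned to 0.073 with median-ratio factors, 0.46 on the deposited values, 0.078 with exonic-length TPM, 1.61 with array weights, 1.78 with the replicate block, and 0.36 without YAP replicate 2 (range when each library was left out, -1.31 to 1.88). Fzd6 turned to -0.00050 with quantile normalization and to between -0.20 and -0.07 in 4 fits without one library (range -0.20 to 0.34). Dkk3 turned to 0.31 with array weights and 0.054 without BrafYAP replicate 6 (range -2.20 to 0.054), and Nkd1 to -0.59 with the replicate block. The causes were not tested. Of the 47 genes 20 had too few reads to be tested, and low depth and lack of expression cannot be told apart for them.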

Other observations

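The order of the libraries by Wnt9a was nearly the reverse of their order by the thyroid hormone precursor gene Tg, a relation chosen after the values were seen. Tg had 6476, 1046 and 16193 estimated reads in YAP replicates 1, 2 and 3 and 116, 66 and 22117 in BrafYAP replicates 1, 2 and 6. The libraries with the most and the fewest Tg reads, BrafYAP replicates 6 and 2, held the fewest and the most scaled reads of Wnt9a, 157 and 13141. Wnt7a and Wnt7b were also lowest in BrafYAP replicate 6 and highest in BrafYAP replicate 2.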
